A study of Mus musculus with 25 samples.

Results

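The data described here are joins between a Cas9-cut bait and a reporter cassette in BRCA1del mouse embryonic stem cells that had been given either I-SceI or a control. They comprise every junction listed for those 2 groups, 2170 of the 11867 junctions of the series, with 1702 from cells given I-SceI and 468 from the control cells. The study mapped joins by LAM-HTGTS, in which DNA joined to a cut bait is amplified from a primer beside the cut and sequenced, so a read shows where the joined DNA came from and which way it runs. The bait break was made by Cas9 with a guide 30 kb upstream of a 4-kb cassette in the ROSA26 locus. The series title names tandem duplications at replication forks stalled by Tus at Ter sites, and the I-SceI group sets a nuclease break in the same cassette beside them.

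Both groups carried the genotype labelled BRCA1del/exon11 and both received siRNA against FANCM, so neither BRCA1-proficient cells nor cells with a control siRNA enter the comparison. Cells were transfected with nuclease, effector and siRNA together and DNA was collected 48 hours later. The effector was I-SceI in one group and "EV" in the other, read here as empty vector. Each group had 2 labelled samples. The tables pool them but carry the sequencing run in the read names, and 2 runs, called A and C, held both groups. Each run of a group was taken as 1 library, although nothing ties a run to a labelled sample. The I-SceI libraries held 801 (run A) and 901 (run C) junctions and the EV libraries 188 and 280. The labels do not say whether the samples were separate cultures or how many clones were used, so the spread between libraries may be technical.

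I-SceI is a homing endonuclease that cuts a long recognition site and leaves a break with a pair of ends, each with a short 3′ overhang. Such ends can be joined directly by non-homologous end joining, which needs little or no shared sequence, or after resection by end joining at microhomologies, short stretches present at both ends that become a single copy in the join. BRCA1 promotes end resection and homologous recombination, and FANCM is a DNA translocase that remodels stalled forks. In a join to a distant bait, prey running leftward from the junction comes from the DNA on the left of the break and prey running rightward from the DNA on its right.

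The sequences below show the cut and the bait end, since every position that follows is measured from them. The cassette was rebuilt from the reads and positions are given in the 1-based coordinates of the deposited tables, which belong to the cassette and not to a genome build. The 6 Ter elements, to which Tus binds, are 23 bp each. The first 3 started at 3048, 3076 and 3104, and the last 3 started at 3166, 3194 and 3222. The I-SceI site followed at 3260 to 3277, and array and site together interrupted the EGFP coding sequence, which spanned 2636 to 3605. An XbaI site at 3618 was taken as the start of the polyA region, and all that lies before it is called the cassette body. Capitals mark the I-SceI site in the first line and the 3′ overhang of 4 bases, positions 3265 to 3268, in the following pair. The last line is the end of the bait up to the Cas9 cut, taken as the last base shared by most reads that reached it.
I-SceI site with flanks: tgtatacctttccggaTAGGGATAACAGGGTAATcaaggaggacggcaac
Left break end, top strand: tgtatacctttccggatagggATAA
Right break end, bottom strand: gttgccgtcctccttgattaccctgTTAT
Bait end: cagttcgaaactaggcaggagtaacttgct

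Joins to the cassette body were common with I-SceI and rare with EV. In the I-SceI libraries 511 of 801 junctions (63.8%) in run A and 632 of 901 (70.1%) in run C lay in the body, a mean of 67.0% ± 4.49 (SD, n = 2 runs). In the EV libraries 2 of 188 (1.06%) and 3 of 280 (1.07%) did. The groups did not overlap, and the pooled difference of 66.1 percentage points (95% interval 63.4 to 68.4, Newcombe) passed Fisher's exact test (adjusted p = 3.51e-172, Benjamini-Hochberg over 8 comparisons). An exact permutation of the 4 libraries gave p = 0.333, the smallest that 2 against 2 allows. These shares have polyA joins in the denominator and do not measure how often the DNA broke, since the tables used here cover the cassette only.

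The I-SceI site itself, only 18 bp long, held the largest group of body joins. It took 268 of 801 junctions (33.5%) in run A and 279 of 901 (31.0%) in run C, against 0 of 468 with EV, which allows a share of up to 0.641% (3 counts; adjusted p = 6.98e-68, Fisher's exact test). The body to the right of the site held 94 of 801 (11.7%) and 145 of 901 (16.1%) junctions with I-SceI and again 0 with EV (adjusted p = 6.08e-27, Fisher's exact test). The Ter array with its leader, to the left of the site, held 126 and 160 junctions with I-SceI, 16.8% of the pooled total (95% Wilson interval 15.1 to 18.7), and 1 with EV. Left of the array lay 23 of 801 (2.87%) and 48 of 901 (5.33%) with I-SceI and 2 of 188 (1.06%) and 2 of 280 (0.714%) with EV. That smallest difference, 3.32 points, passed on pooled junctions (adjusted p = 3.05e-04, Fisher's exact test) but not without the EV library of run C (adjusted p = 0.0851), nor among reads that are cassette sequence to their end (adjusted p = 0.394, Fisher's exact test). Amplified reads are not independent molecules, so the intervals and tests on pooled counts reflect at best counting error alone and can understate it.

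**Figure D1:**
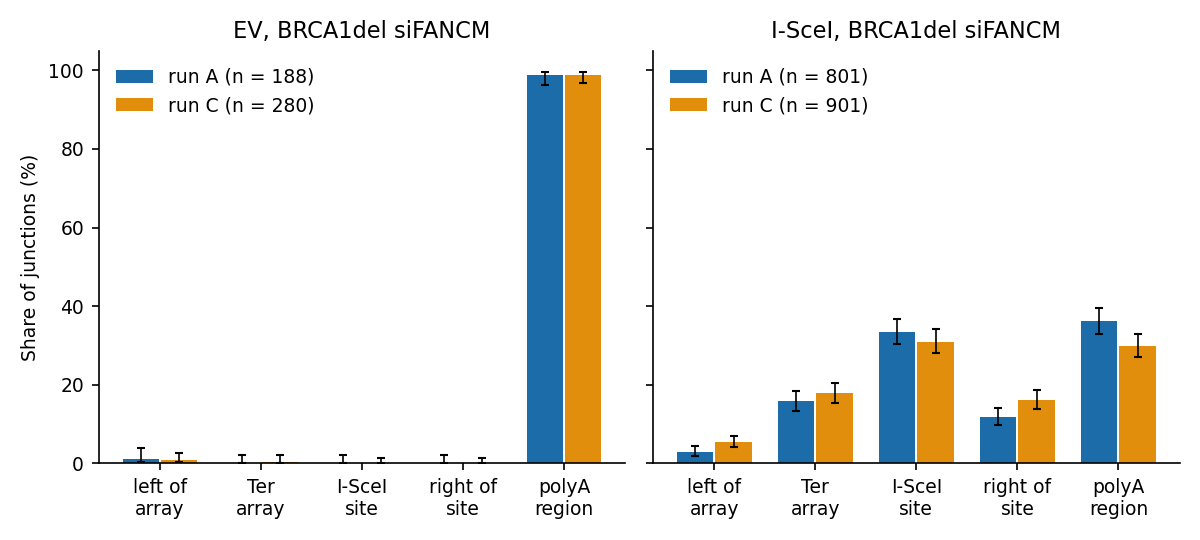
Share of junctions (%) in 5 zones of the cassette for the EV and I-SceI libraries of runs A and C, with Wilson 95% intervals as error bars. The polyA region held 98.9% of pooled EV junctions and 32.8% of pooled I-SceI junctions, and the I-SceI site held 32.1% of I-SceI junctions and none of the EV junctions.

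The 5 EV joins in the body were scattered, and none had the position and orientation of any I-SceI join. In run A, 1 ran rightward from 232 with 1 shared base and 1 ran leftward from 2737, within EGFP, with no shared or inserted base. In run C, 1 ran leftward from 107 with 1 inserted base and 1 ran rightward from 1557 with 2 shared bases. The last, leftward from 3066 in the first Ter element, had 96 bases between bait and prey and a bait end 108 bases short of the cut. Its read did not carry the 5′ tag common to its library. The EV body joins therefore give the background of the assay in this cassette but too few joins to compare their structure with that of I-SceI joins.

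The orientation of the I-SceI joins changed at the cut. Leftward joins lay to the left of the cut and rightward joins to its right in 1065 of 1143 body joins, counting up to 3 bases past the end of the overhang. By library, 233 of 246 leftward joins (94.7%) in run A and 259 of 282 (91.8%) in run C lay on the left, and 250 of 265 rightward joins (94.3%) in run A and 323 of 350 (92.3%) in run C lay on the right. The Ter array, left of the cut, held 279 leftward and 7 rightward joins. The body right of the site held 204 rightward and 35 leftward joins. Both break ends were therefore found joined to the bait, with 492 joins counted to the left end and 573 to the right end. The 492 include 38 leftward joins left of the array. In that zone 33 joins ran rightward, so orientation there did not follow the cut.

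Joins began at the tip of the overhang and became rarer inward. Rightward, the most used position was 3265, the first overhang base, with 25 joins in run A and 35 in run C. It was followed by 3268, the last overhang base, with 22 and 23, and by 3266 with 14 and 23. Leftward, the most used positions were 3265 with 10 and 14 joins, 3268 with 15 and 8, and, with 21 joins each, 3262 with 16 and 5 and 3266 with 10 and 11. No leftward position stood out as 3265 did on the right. Past the tip, 12 joins of each orientation reached 1 or 2 bases further, and 9 of the 12 leftward ones shared bases with the bait, so that a part of these bases could come from either side.

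Most break ends had lost few bases before joining. Loss is counted here from the 3′ tip of the overhang, so that 0 means the whole overhang was kept and 4 that it was gone. For the 38 leftward joins left of the array, the distance from the tip is counted as loss. Their origin at the cut was not tested. For the right end the median loss was 7 bases in run A (quartiles 3 and 15) and 9 in run C (2 and 16), and the largest was 231. For the left end it was 11 in run A (4 and 24) and 16 in run C (7 and 36), with a largest loss of 2763. Joins to the right end were counted only up to the XbaI site at 3618, so the largest losses of the 2 ends cannot be compared. The right end kept its whole overhang in 60 joins and ended within it, past the tip included, in 189 of 573 (33.0%). The left end kept it in 23 joins and ended within it in 100 of 492 (20.3%).

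**Figure D2:**
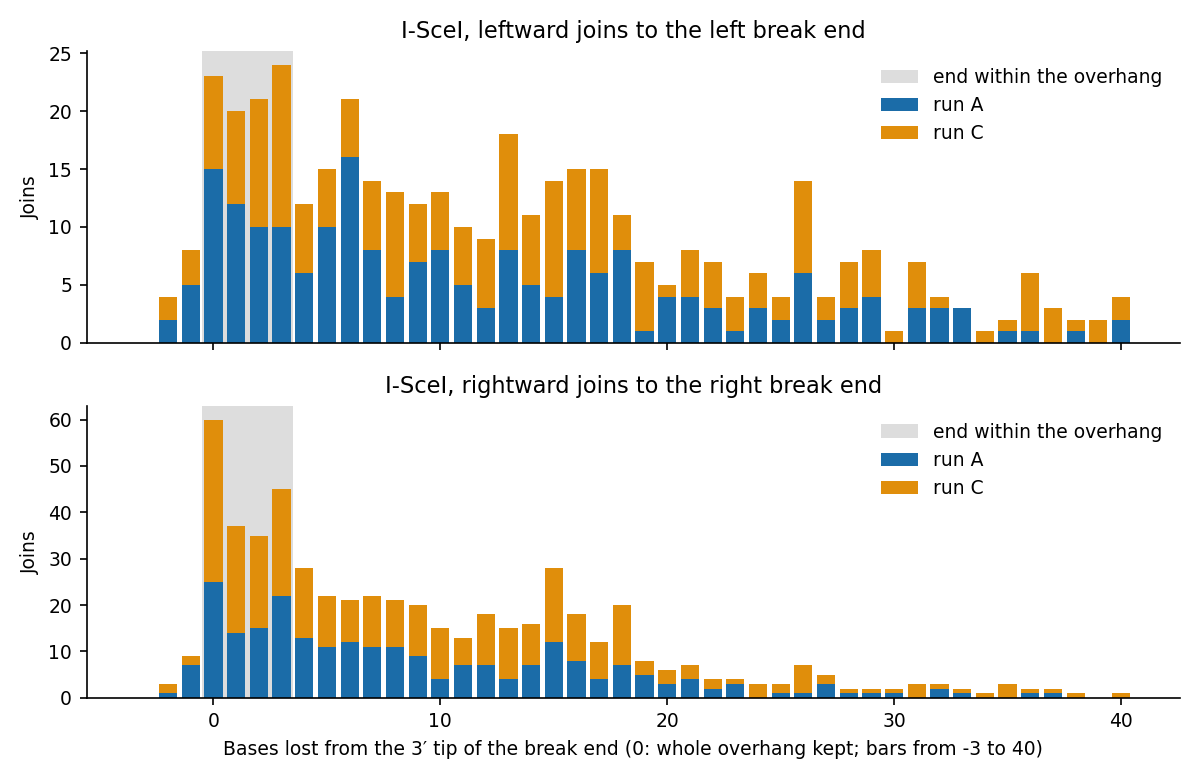
Number of I-SceI joins (runs A and C stacked) by bases lost from the 3′ tip of the left break end (top, leftward joins) and of the right break end (bottom, rightward joins), with ends inside the overhang shaded and losses over 40 bases not shown. Both profiles start at the tip; the right end has 60 joins with the whole overhang and the left end 23.

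Among body joins, the right end was joined with less loss than the left end, whose joins include the 38 leftward ones left of the array. The body ends sooner on the right, at 3618, so losses reaching past that point were not counted. The part of this in the difference was not tested. Losses of up to 20 bases made up 87.6% (run A) and 84.5% (run C) of joins to the right end and 70.8% and 57.9% of joins to the left end. The pooled difference was 21.8 points (95% interval 16.7 to 26.9; adjusted p = 1.27e-15, Fisher's exact test, Benjamini-Hochberg over 11 comparisons chosen after the data were seen). The median loss was 6 bases lower on the right (adjusted p = 1.83e-05, permutation test with 100000 resamples, the smallest they can give before adjustment), and it was lower in both runs. Ends within the overhang differed by 12.7 points (adjusted p = 7.67e-06, Fisher's exact test). When a position used on a strand counted only once in a library, they differed by 4.29 points, which did not pass. Every position used there was used in both orientations and both runs, so that counting cannot compare how often each end kept overhang bases. Ends at or past the tip made up 72 of 573 joins to the right end and 35 of 492 to the left. That was 5.45 points more on the right (adjusted p = 0.00493, Fisher's exact test), a difference that did not pass without run C. It did not pass under that counting either, which has the same limit here. Leftward reads run into the repeated Ter elements and rightward reads into EGFP sequence, and the part of this in the difference was not tested. Of 982 I-SceI joins in and near the array, 3 could be placed as well in the other repeat.

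The join sequences show the kept overhangs directly. In the first pair of lines both ends were complete and no base was lost, added or shared. The capitals are the 4 overhang bases, and the bait lies before them. Such fully blunt joins of a complete bait to a complete overhang were few, with 1 leftward and 2 rightward examples. Both ends were complete in 4 leftward and 9 rightward joins. Among joins with called structure, the bait was complete in 62 of 491 leftward and 74 of 573 rightward ones. The overhang was complete in 23 and 60. Cassette sequence of leftward joins is shown only up to the last Ter element.
Leftward, whole overhang: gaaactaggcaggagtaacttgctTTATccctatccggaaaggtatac
Rightward, whole overhang: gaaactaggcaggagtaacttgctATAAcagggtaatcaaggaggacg

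Many different joins were found, and a part of them recurred. Among 1064 joins on the own side of the cut with called structure, 872 combinations of position, orientation, bait end and overlap occurred, 169 of them more than once, and these held 361 of the joins (33.9%). The runs had 165 combinations in common, 34.9% of the 473 in run A and 29.3% of the 564 in run C. Within a run few repeated, with 473 combinations among 483 joins in run A and 564 among 581 in run C. The sources do not say whether duplicates were removed within each run. Whether the runs held the same molecules was not tested, so the overlap cannot be read as independent recurrence. The most frequent rightward join occurred 5 times (3 in run A, 2 in run C) and used 4 shared bases at a loss of 8. The next ones, at the tip of the overhang, occurred 4 times, 2 in each run, with 1 shared base or, after a complete bait, with 1 inserted base. Leftward, 3 joins occurred 3 times each, at losses of 13 and 18. They are shown with shared or inserted bases in capitals.
Rightward 3273, 4 shared bases: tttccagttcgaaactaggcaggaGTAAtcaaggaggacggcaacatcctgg
Rightward 3265, 1 shared base: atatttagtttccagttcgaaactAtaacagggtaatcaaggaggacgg
Rightward 3265, 1 inserted base: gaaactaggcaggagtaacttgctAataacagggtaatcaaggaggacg
Leftward 3255, 4 shared bases: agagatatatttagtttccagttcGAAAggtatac
Leftward 3255, blunt: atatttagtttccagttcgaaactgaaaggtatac
Leftward 3250, 2 shared bases: ctttgggaaagagagatatatttaGTatac

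Joins within the I-SceI site carried microhomology less often than other body joins. At least 1 base was shared in 204 of 547 site joins (37.3%), nearly as many as the 214 that were blunt. Microhomology, counted from 2 shared bases, was present in 39 of 268 site joins (14.6%) in run A and 36 of 279 (12.9%) in run C. Elsewhere in the body it was present in 67 of 243 (27.6%) and 97 of 352 (27.6%). These other joins include the 71 left of the array, 50.7% of which carried microhomology. The share was 23.4% of 278 leftward joins in the array and 20.1% of 204 rightward joins right of the site. Neither of these sets was tested against the site alone. The pooled difference between the site and all other body joins was -13.8 points (95% interval -18.4 to -9.2). It passed Fisher's exact test (adjusted p = 3.63e-08, Benjamini-Hochberg over 5 comparisons) and missed the threshold with single counting of positions (-17.8 points, adjusted p = 0.0584). Blunt joins made up 44.4% and 34.1% of site joins and 36.2% and 29.8% of other body joins. The blunt share was higher by 6.69 points at the site (adjusted p = 0.0315, Fisher's exact test), which did not pass in either library alone or with the run as a stratum. Joins with inserted bases made up 18.3% and 28.7% of site joins and 11.1% and 19.9% of others, which is 7.28 points more at the site (adjusted p = 0.00569, Fisher's exact test) and did not pass without run C (adjusted p = 0.0628). In both classes the libraries differed by as much as the site did from the rest, with more blunt joins in run A and more insertions in run C.

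Within the site no difference in structure between the break ends passed the test. Rightward and leftward site joins were blunt in 39.6% and 38.1% (difference 1.55 points, 95% interval -7.25 to 10.1; adjusted p = 0.779, Fisher's exact test). They carried microhomology in 12.1% and 17.05% (difference -4.92 points, 95% interval -11.8 to 1.18; adjusted p = 0.178, Fisher's exact test). The blunt interval leaves room for differences of several points in either direction, and the microhomology interval mostly for a lower share in rightward joins. Over all losses, microhomology was present in 15.01% of joins to the right end and 23.01% of joins to the left end (difference -8.01 points, adjusted p = 0.00126, Fisher's exact test). That difference had the same direction in both runs, with -7.12 points in run A and -8.78 in run C, and did not pass without run C. Blunt joins made up 39.8% and 34.6%, a difference of 5.17 points (adjusted p = 0.0864 by Fisher's exact test). Among the alternatives tried it passed only with single counting of positions, at 18.1 points. In both comparisons over all losses, the joins to the left end include the 38 leftward ones left of the array. Of all 71 joins in that zone, 50.7% carried microhomology and 16.9% were blunt.

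Shared bases were more frequent in joins more than 20 bases from the tip of the break end. The class beyond 50 bases includes the 38 leftward joins left of the array, for which loss from the cut is assumed. Microhomology was present in 14.5% of 289 joins with up to 3 bases lost, in 14.5% of 518 with 4 to 20 bases lost, in 27.6% of 170 with 21 to 50 lost and in 40.2% of 87 with more than 50 lost. Beyond 20 bases the share was 33.3% in run A and 31.0% in run C, against 14.8% and 14.2% at smaller losses, a pooled difference of 17.4 points (95% interval 11.4 to 23.7; adjusted p = 9.28e-09, Fisher's exact test). In the same order of classes 35.99%, 43.1%, 31.8% and 19.5% of joins were blunt. Long microhomologies were few: 3.85% of joins on the own side of the cut had at least 4 shared bases and the longest had 7. A single shared base was present in 23.97%, most often t (49) or a (35) on the left and a (57) or t (31) on the right. Among stretches of at least 2 bases, ta was the most frequent (18 joins), followed by ag (15) and aa (13).

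**Figure D3:**
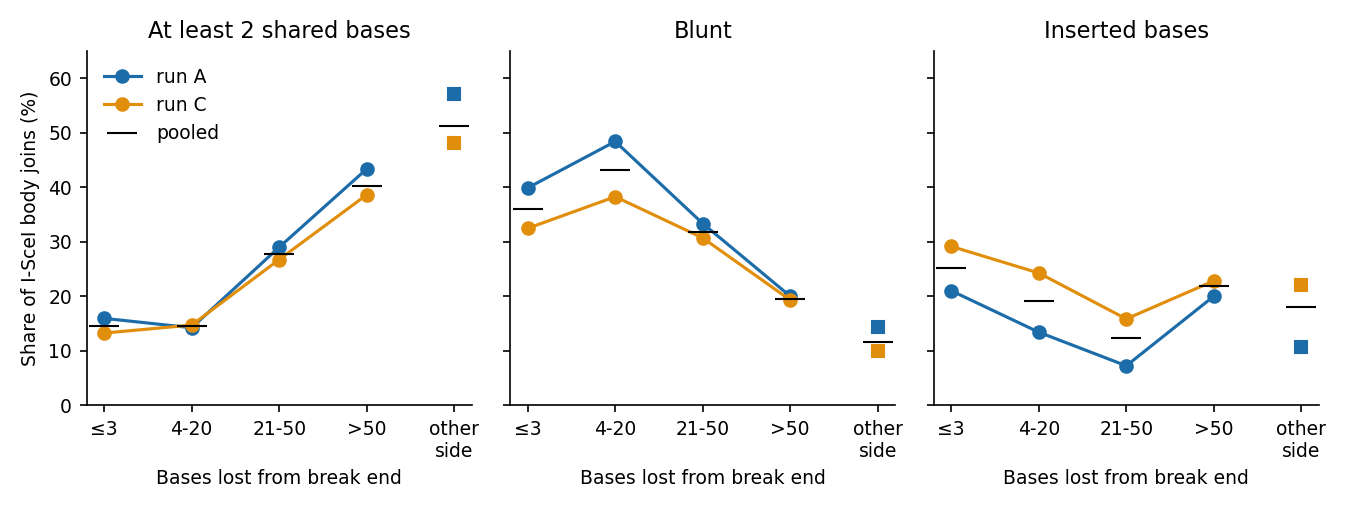
Share (%) of I-SceI body joins with at least 2 shared bases, blunt, or with inserted bases, by bases lost from the break end and for joins on the other side of the cut, for runs A and C (coloured points) and pooled (black bars). Shared bases go from 14.5% to 40.2% with loss and are at 51.3% on the other side, while blunt joins are 11.5% there.

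In the other 78 body joins the prey ran from the junction toward the cut. Rightward joins to the left of the cut numbered 15 in run A and 27 in run C, 33 of the 42 lay left of the array, and their median distance from the cut was 434.5 bp. Leftward joins to the right of the cut numbered 13 and 23 and lay at a median of 157.5 bp. Microhomology was present in 16 of 28 (57.1%) in run A and 24 of 50 (48.0%) in run C, against 18.6% and 18.8% on the own side, a pooled difference of 32.6 points (95% interval 21.4 to 43.6; adjusted p = 3.5e-09, Fisher's exact test). Blunt joins made up 11.5% against 37.4% (adjusted p = 2.88e-06, Fisher's exact test). Most own-side joins lie close to the cut, and set against the 87 that had lost more than 50 bases, neither share passed the test. There 40.2% carried microhomology (difference 11.1 points, 95% interval -4.08 to 25.5) and 19.5% were blunt (-8 points, -18.9 to 3.35; adjusted p = 0.201 for both, Fisher's exact test, over 2 comparisons added after the data were seen). The 87 include the 38 leftward joins left of the array, the zone that also held 33 of the 42 rightward joins on the other side. This comparison therefore sets joins of that zone partly against each other. Of the 78 joins on the other side 77 were distinct and 1 combination was found in both runs.

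Leftward joins in the Ter array lay mostly near the cut. Of the 279, 159 fell in the stretch between the last Ter element and the site (75 in run A, 84 in run C), 106 from the fourth to the sixth Ter element (43 and 63) and 14 before the fourth (6 and 8). Left of the array, 38 leftward and 33 rightward joins were spread from 496 to 3015 with a median of 2763, and 44 of the 71 lay in the first part of EGFP. Microhomology was present in 50.7% of these 71 joins and 16.9% were blunt. Right of the site, 168 of the 204 rightward joins lay within 20 bp of it.

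The joined baits had also lost few bases, and slightly fewer when joined to the right end. The median bait loss was 7 bases in both runs for rightward joins on the own side of the cut, and 11 (run A) and 13 (run C) for leftward joins. The difference of 5 bases passed (adjusted p = 2.04e-04, permutation test with 100000 resamples) and kept its direction in both runs. The bait was complete in 12.8% of own-side joins and had lost more than 50 bases in 4.32%.

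Inserted bases were mostly few. Among 212 own-side joins with an insertion, 93 had 1 base, 74 had 2 to 9 and 45 had 10 or more. A single inserted base was t in 16 and a in 12 leftward joins, and a in 21 and t in 17 rightward joins. Of all 47 body joins with at least 10 inserted bases, 12 were from run A and 35 from run C. Only the 31 with at least 15 inserted bases could hold an exact stretch of that length. Of these 31, a stretch of at least 15 bases of the cassette was found in 4 and of the bait in 2. The 4 cassette copies ran in the orientation of the prey, and in 3 of these the whole insertion, of 22, 43 and 102 bases, matched. In run C 13.5% of body joins had at least 15 bases that the alignment left out, before or after the prey, against 3.33% in run A.

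In the polyA region, which held nearly all EV junctions, no difference between the groups in orientation, structure or position passed the test. It held 290 and 269 I-SceI junctions and 186 and 277 EV junctions. Rightward joins made up 37.6% and 35.7% with I-SceI and 43.5% and 40.1% with EV (difference -4.8 points, 95% interval -10.8 to 1.2; adjusted p = 0.195, Fisher's exact test). Microhomology was called in 16.3% and 15.6% (difference 0.758 points, 95% interval -3.81 to 5.22), blunt joins in 13.8% and 14.5% (-0.672 points, -5.04 to 3.59) and insertions in 54.8% and 55.9% (-1.1 points, -7.19 to 5.01). None passed Fisher's exact test (adjusted p = 0.797 for each). The median position was 3843 in both groups. By run, the EV median was 3830 in run A and 3843 in run C, and the I-SceI median was 3843 in each. A permutation test on the ranks of the positions gave p = 0.509.

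The polyA alignments occupied the same short segments in both groups. The segments were set by the commonest starts and ends of the EV alignments. With EV, all 463 lay within 3728 to 3843 or 3855 to 3910, allowing 2 bp at each edge, with 253 in the first segment and 210 in the second. With I-SceI 544 of 559 did. The other 15 reached beyond a segment, 9 in run A and 6 in run C, against 0 of 463 with EV, which allows up to 0.648% (difference 2.68 points, adjusted p = 4.55e-04, Fisher's exact test, over 4 comparisons added after the data were seen). Because the segments were set on the EV alignments, neither this limit nor this test is independent of them. Of the 15 I-SceI alignments, 13 ran leftward. Junctions piled up on segment edges in both groups: leftward, 125 I-SceI and 90 EV junctions lay at 3910 and 44 and 34 at 3843, and rightward, 34 and 39 lay at 3728 and 34 and 29 at 3855. The next most used positions were far lower, with 14 leftward I-SceI junctions at 3882 (4 in run A, 10 in run C) and 5 rightward at 3727, and with 5 leftward EV junctions at 3907 and 5 rightward at 3862.

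Most polyA reads held other sequence beside the segment. At least 15 bases that were not part of the alignment stood before or after it in 408 of 559 I-SceI joins (73.0%) and 345 of 463 EV joins (74.5%; difference -1.53 points, 95% interval -6.89 to 3.92, adjusted p = 0.753, Fisher's exact test), and all of these lay within the segments. Among I-SceI body joins the share was 8.92%. At a segment edge the called position is therefore the end of the matching stretch and need not be the point of joining, and what the other sequence is was not tested. Among joins at least 10 bp inside a segment, the 4 comparisons of orientation and structure again did not pass. Taking body joins together with alignments that reach beyond the segments gave 520 and 638 joins with I-SceI and 2 and 3 with EV, or 1.85 and 2.43 per join confined to the segments against 0.0108 and 0.0108.

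**Figure D4:**
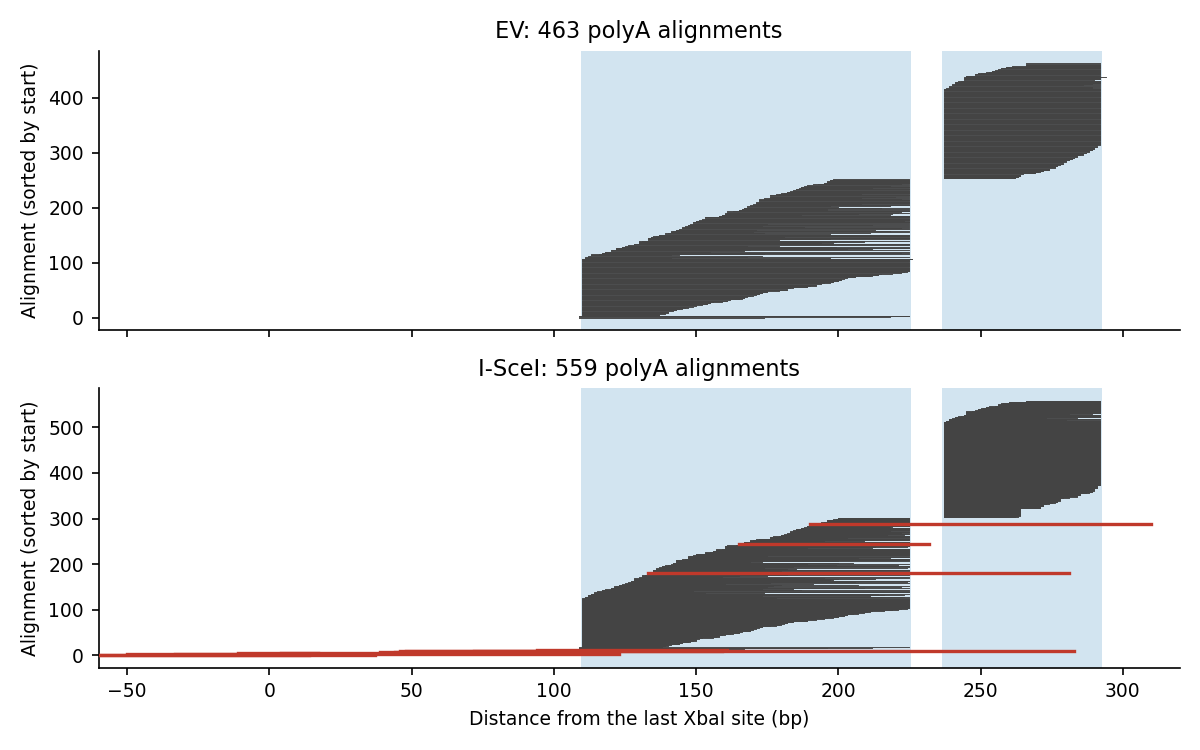
Each horizontal line is the alignment of 1 polyA junction, sorted by start, against distance (bp) from the last XbaI site, for EV (463) and I-SceI (559); blue bands are the segments of 116 and 56 bp, and alignments that reach beyond them are red and cut off at -60 bp. The bands were set by the commonest starts and ends of the EV alignments. All EV alignments lie in them and 15 I-SceI alignments do not.

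Ends at the overhang positions were nearly absent with Tus in cells of the same genotype and siRNA. Tus cells had 1 of 408 body joins at the 4 overhang positions in run A, 0 of 319 in run C and 0 of 97 in run D. With I-SceI there were 123 of 511 (24.1%) and 142 of 632 (22.5%). The pooled difference passed Fisher's exact test (unadjusted p = 2.43e-67, added after the data were seen), and an exact permutation of the 5 libraries gave p = 0.2, to which the design limits it two-sided.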

How the data were processed

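For each group the authors deposited a junction list with the read behind each entry. These deposited values are other than counts: cassette positions, strands and sequences. The submitters' processing notes list Bowtie2 and mm9. Filters and duplicate removal are not given in the sources used here. Members and comparisons were chosen with earlier results of these data known.

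Bait and cassette were rebuilt from the reads by voting (5 passes). By sequence match the I-SceI site lies 1 bp to the right of an earlier placement. Structure was called for 2168 of 2170 junctions from exact seeds of 10 bp (bait) and 12 bp (prey): shared bases are microhomology (minimum 2 bp), extra bases an insertion. The deposited position equalled the called end in 94.5%. No read sequence recurred within a group. The caller was tested on simulated data. Tests were two-sided, with Benjamini-Hochberg adjustment and a threshold of 0.05 (scipy 1.17.1, statsmodels 0.14.6). Alternatives were counting joins once, run strata, single libraries, complete reads, other microhomology minima, seeds and windows. Named positions were the 3 most used per strand near the site and in the polyA region, and all EV body joins. Sequences of the polyA region are not printed.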

Additional observations from a re-analysis of the deposited data

How the results depend on the processing

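The shares of the body, the I-SceI site and the right body kept their direction and passed under every alternative tried. The polyA comparisons of orientation, structure and position passed under none. Counting each position and strand once per library, the site differed from other body joins by -17.8 points in microhomology, 5.25 in blunt joins and 6.56 in insertions, none of which passed. Under the same counting the right end differed from the left by 2.14 points in ends at or past the tip, 4.29 in ends within the overhang and 2.08 in insertions, which did not pass, and by 18.1 points in blunt joins, which did, against 5.17 with all joins and 4.92 to 5.99 under the other alternatives, which did not. For ends at the overhang that counting decides nothing, since every position used there was used in both orientations and both runs. The blunt difference at the site did not pass with the run as a stratum (6.01 points), with complete reads (5.68) or with shorter seeds (6.03). The difference left of the array was 2.74 points among complete reads and did not pass. The cause of the other changes was not tested. Leaving out single libraries, the differences ran from 4.22 to 8.19 points (site, blunt), 7.17 to 8.79 (site, insertions), 2.02 to 4.47 (left of the array), 3.76 to 7.06 (ends at or past the tip), -8.78 to -7.12 (right against left end, microhomology) and 2.67 to 7.48 (insertions). Added alternatives were chosen after seeing the data. No paired analysis was possible because the tables carry no replicate number to pair samples by; runs A and C each held both groups, and with the run as a stratum the body share differed by 66.4 points. With 2 libraries per group and 468 EV junctions, a count of 0 with EV allows a share of up to 0.641%, and no p over libraries could fall below 0.333.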

Other observations

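The bait was complete in 25.4% of I-SceI polyA joins and 23.3% of EV polyA joins, and in 12.8% of I-SceI joins on the own side of the cut. This difference was not tested. The same polyA join, by position, orientation, bait end and overlap, was found in both runs for 29 of 282 distinct I-SceI joins of run A (10.3%). For EV it was 27 of 184 (14.7%), against 34.9% for I-SceI joins on the own side of the cut. Of the distinct joins of run C the shares were 10.9%, 9.75% and 29.3%, in the same order.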
